A study of Coturnix japonica with 15 samples.

Results

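The expression of 6 genes that mark the endothelial cells of the liver, STAB1, STAB2, KDR, TEK, TIE1 and CDH5, was measured in the left lobe of the liver of Japanese quail (Coturnix japonica) embryos. The genes were chosen by symbol in the NCBI gene table for this species, and all 6 were found among the 20308 gene IDs of the series. Bulk RNA was sequenced at embryonic day 9 in 3 groups of 5 libraries. Eggs of the solvent group received DMSO, and eggs of the other groups received ethinylestradiol (EE2), a synthetic oestrogen, at 3.33 or 33.3 µg per g. All were injected once with 10 µl in the air cell, and incubation followed at 37 °C with 60% humidity. An uninjected group was not analysed here. The labels give neither embryo sex nor the number of embryos behind a library, so the p-values measure the spread between libraries, which may be technical.

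Endothelial cells line the blood vessels. In the liver they form the walls of the sinusoids, the wide capillaries that run between the plates of hepatocytes, and in mammals these cells clear waste molecules from the blood through scavenger receptors. Vascular endothelial growth factor (VEGF) drives the division and migration of endothelial cells, angiopoietins regulate the stability of the vessel wall, and cadherin contacts hold neighbouring cells together. The roles given here for single genes are known from mouse and human. In bulk tissue, fewer endothelial cells and less endothelial RNA per cell cannot be told apart.

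None of the 6 genes passed an adjusted p of 0.05 in any comparison of the groups by edgeR's quasi-likelihood test. The share of all 14508 tested genes that passed was, set against solvent, 1.08% for 33.3 µg/g, 1.38% for 3.33 µg/g and 1.96% for both doses pooled. It was 0% between the doses. With 33.3 µg/g, 5 of the 6 had a lower fitted level than in solvent and STAB2 a higher one. The differences lay between -0.33 and 0.081 on the log2 scale, and the 95% intervals of the 6 fold changes ran from 0.592 to 1.30. With 3.33 µg/g, the scavenger receptor genes STAB1 and STAB2 were 1.23-fold and 1.24-fold of solvent, with unadjusted p of 0.0371 and 0.0398, while KDR, TEK, TIE1 and CDH5 lay between 0.906-fold and 1.02-fold. All 6 genes had a lower fitted level at 33.3 than at 3.33 µg/g, most of all STAB1.

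Levels are given as CPM, the estimated counts of a gene on library totals scaled by TMM and set to 1e+06. All 6 genes passed the filter on low counts, and a gene's estimated count in a library ran from 662 for KDR to 5247 for STAB1. The exact Poisson 95% interval of the count of 662 was 612.5 to 714.4, with its upper end 7.92% above the count, and it covers counting error only. Library totals ran from 21715273 to 54591426. Albumin, the main hepatocyte product, took 9.71% to 13.3% of the counts in 13 libraries. It took 4.85% in replicate 4 at 3.33 µg/g and 5.87% in replicate 1 at 33.3 µg/g. CPM are not compared between genes, because no transcript lengths were used.

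**Figure D1:**
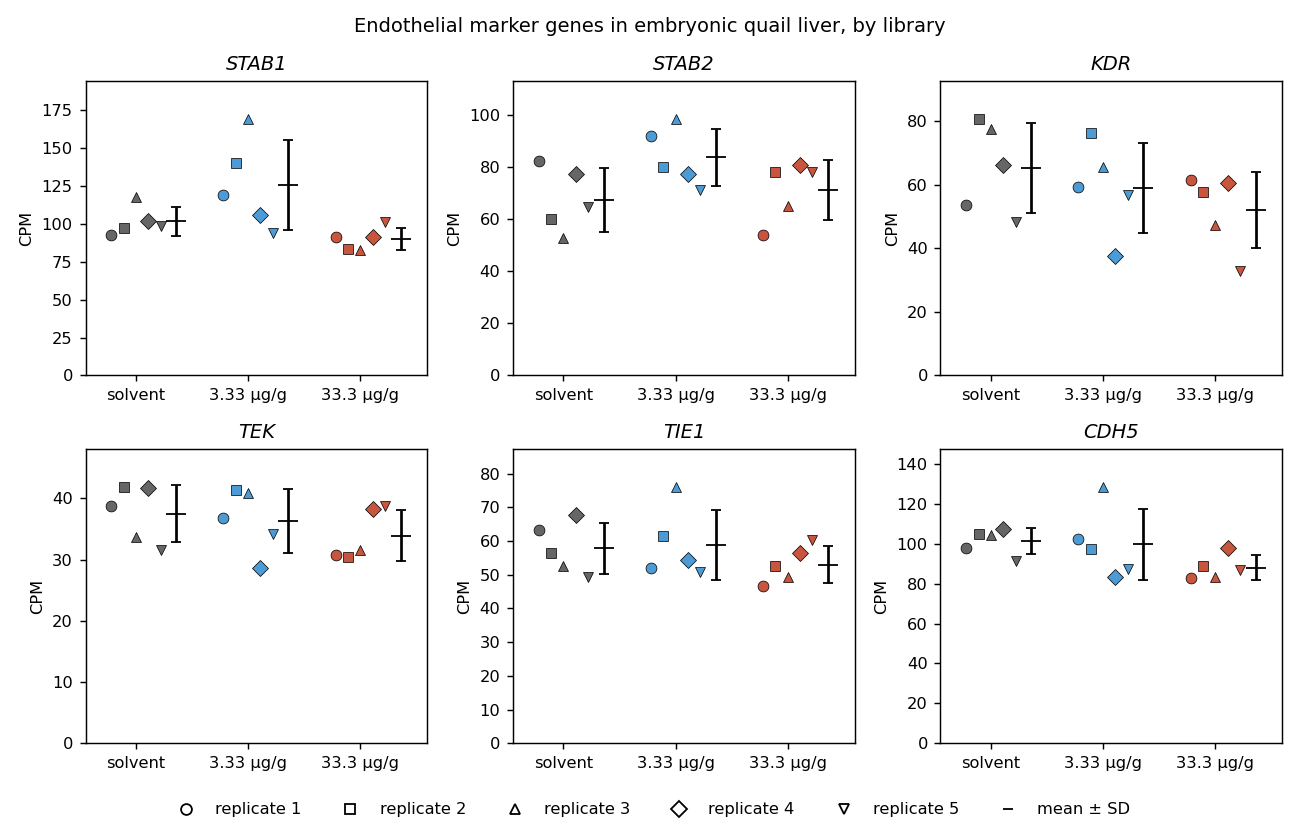
Level of each gene in CPM (vertical axes, starting at 0) in the 15 libraries, by group and replicate number, with the mean and SD of 5 libraries to the right of each group. The groups overlap for all 6 genes, and STAB1 has its highest mean, 125.6 CPM, at 3.33 µg/g, with replicate 3 at 169.0 CPM.

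STAB1 encodes stabilin-1, a scavenger receptor of sinusoidal endothelial cells and of some macrophages. Its level was 92.7, 97.6, 118.1, 101.8 and 98.6 CPM in the solvent libraries. It was 118.8, 140.2, 169.0, 105.8 and 94.1 CPM at 3.33 µg/g, and 91.5, 83.8, 83.1, 91.1 and 101.3 CPM at 33.3 µg/g. Replicates 1, 2 and 3 at 3.33 µg/g stood above every solvent library, while 4 of the 5 libraries at 33.3 µg/g stood below every solvent library. No pair of groups was without overlap. The group means were 101.8 ± 9.71 CPM in solvent, 125.6 ± 29.7 CPM at 3.33 µg/g and 90.2 ± 7.38 CPM at 33.3 µg/g (SD, n = 5 each), so the SD at 3.33 µg/g was larger than the difference of that group from solvent. The log2 fold change against solvent was, at 33.3 µg/g, -0.18 (SE 0.13) with an adjusted p of 0.725 by edgeR. For 3.33 µg/g it was 0.30 (SE 0.13) with an adjusted p of 0.302.

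STAB2 encodes stabilin-2, the related receptor that takes up hyaluronan. Its level was 82.1, 59.8, 52.8, 77.2 and 64.5 CPM in the solvent libraries. It was 91.7, 80.0, 98.2, 77.2 and 71.1 CPM at 3.33 µg/g, and 53.8, 78.2, 65.1, 80.7 and 78.2 CPM at 33.3 µg/g. Only replicates 1 and 3 at 3.33 µg/g exceeded every solvent library, and the libraries at 33.3 µg/g lay inside the solvent range. The means were 67.3 ± 12.2 CPM in solvent, 83.6 ± 11.04 CPM at 3.33 µg/g and 71.2 ± 11.5 CPM at 33.3 µg/g (SD, n = 5 each). The log2 fold change was 0.081 (SE 0.14, adjusted p 0.915 by edgeR) at 33.3 µg/g against solvent. It was 0.31 (SE 0.14, adjusted p 0.310) at 3.33 µg/g against solvent.

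KDR encodes VEGF receptor 2, the main signalling receptor for VEGF on endothelial cells. Its level was 53.6, 80.5, 77.5, 66.3 and 48.3 CPM in the solvent libraries. It was 59.3, 76.3, 65.5, 37.7 and 56.7 CPM at 3.33 µg/g, and 61.4, 57.6, 47.5, 60.5 and 32.9 CPM at 33.3 µg/g. KDR had the widest range of the 6 genes, 2.45-fold between the highest and the lowest library, and its 3 groups overlapped broadly. The lowest values were those of replicate 5 at 33.3 µg/g and replicate 4 at 3.33 µg/g. The means were 65.3 ± 14.2 CPM in solvent, 59.1 ± 14.2 CPM at 3.33 µg/g and 52.0 ± 12.0 CPM at 33.3 µg/g (SD, n = 5 each), an order by dose whose steps were smaller than the SD of each group. The difference from solvent at 33.3 µg/g, -0.33 (SE 0.20) on the log2 scale, was the largest in size of the 6 genes in that comparison, and its adjusted p by edgeR was 0.633. For 3.33 µg/g against solvent the log2 fold change was -0.14 (SE 0.20, adjusted p 0.804).

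TEK encodes TIE2, the receptor for the angiopoietins. Its level was 38.7, 41.8, 33.7, 41.7 and 31.6 CPM in the solvent libraries. It was 36.9, 41.4, 40.8, 28.6 and 34.2 CPM at 3.33 µg/g, and 30.7, 30.4, 31.5, 38.2 and 38.8 CPM at 33.3 µg/g. TEK had the narrowest range of the 6 genes, 1.46-fold over all libraries. Of the libraries at 33.3 µg/g, 3 stood just below the lowest solvent library, and the other two stood within the solvent range. The means were 37.5 ± 4.69 CPM in solvent, 36.4 ± 5.24 CPM at 3.33 µg/g and 33.9 ± 4.23 CPM at 33.3 µg/g (SD, n = 5 each). The log2 fold change was -0.15 (SE 0.12, adjusted p 0.750 by edgeR) at 33.3 µg/g against solvent and -0.044 (SE 0.12, adjusted p 0.909) at 3.33 µg/g against solvent.

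TEK lies on chromosome Z in the Coturnix japonica 2.1 assembly, and the libraries differed in the level of that chromosome. The mean log2 CPM of 644 chromosome Z genes was 3.08 to 3.16 in 4 libraries and 3.42 to 3.61 in the other 11. The 4 low libraries were replicates 3 and 4 at 3.33 µg/g, replicate 1 at 33.3 µg/g and replicate 3 in solvent. Among these 4 libraries, TEK was 40.8 CPM in replicate 3 at 3.33 µg/g and 28.6 to 33.7 CPM in the rest. It was 30.4 to 41.8 CPM in the other 11, so its levels overlapped. With the mean of the chromosome Z genes as a covariate, the log2 fold change of TEK was -0.16 at 33.3 µg/g against solvent and -0.040 at 3.33 µg/g against solvent, and neither passed an adjusted p of 0.05.

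TIE1 encodes a receptor that pairs with TIE2 and modulates its signal. Its level was 63.2, 56.4, 52.5, 67.8 and 49.4 CPM in the solvent libraries. It was 52.1, 61.4, 75.9, 54.5 and 50.8 CPM at 3.33 µg/g, and 46.6, 52.6, 49.3, 56.5 and 60.2 CPM at 33.3 µg/g. Replicate 3 at 3.33 µg/g had the highest value and replicate 1 at 33.3 µg/g the lowest, and all 3 groups overlapped. The means were 57.9 ± 7.56 CPM in solvent, 58.9 ± 10.4 CPM at 3.33 µg/g and 53.0 ± 5.45 CPM at 33.3 µg/g (SD, n = 5 each). The log2 fold change was -0.13 (SE 0.12, adjusted p 0.804 by edgeR) at 33.3 µg/g against solvent and 0.025 (SE 0.12, adjusted p 0.950) at 3.33 µg/g against solvent.

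CDH5 encodes VE-cadherin, the adhesion molecule of endothelial cell junctions. Its level was 97.9, 105.0, 104.5, 107.4 and 91.4 CPM in the solvent libraries. It was 102.2, 97.2, 128.2, 83.2 and 87.2 CPM at 3.33 µg/g, and 82.8, 88.9, 83.1, 98.0 and 86.6 CPM at 33.3 µg/g. The solvent libraries lay close together, and 4 of the 5 libraries at 33.3 µg/g lay below all of them. Only replicate 4 at 33.3 µg/g reached the solvent range, so the groups still overlapped. The means were 101.2 ± 6.52 CPM in solvent, 99.6 ± 17.7 CPM at 3.33 µg/g and 87.9 ± 6.23 CPM at 33.3 µg/g (SD, n = 5 each). The higher dose gave a log2 fold change against solvent of -0.20 (SE 0.10), with an unadjusted p of 0.0676, the smallest of the 6 genes in that comparison, and an adjusted p of 0.510 by edgeR. The lower dose gave -0.024 (SE 0.10, adjusted p 0.945). All 3 groups share 1 estimate of the spread in the model, so replicate 3 at 3.33 µg/g also bears on the test of the higher dose. Without that library, the unadjusted p at 33.3 µg/g against solvent was 0.0171, with an adjusted p of 0.333 by edgeR. With both doses pooled against solvent, the unadjusted p was 0.0252 without that library, with an adjusted p of 0.289. The pooled log2 fold change itself was then -0.17, in place of -0.11. That library held the highest CDH5 value. Of 15 omissions of a single library, this one gave the smallest adjusted p in both comparisons.

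**Figure D2:**
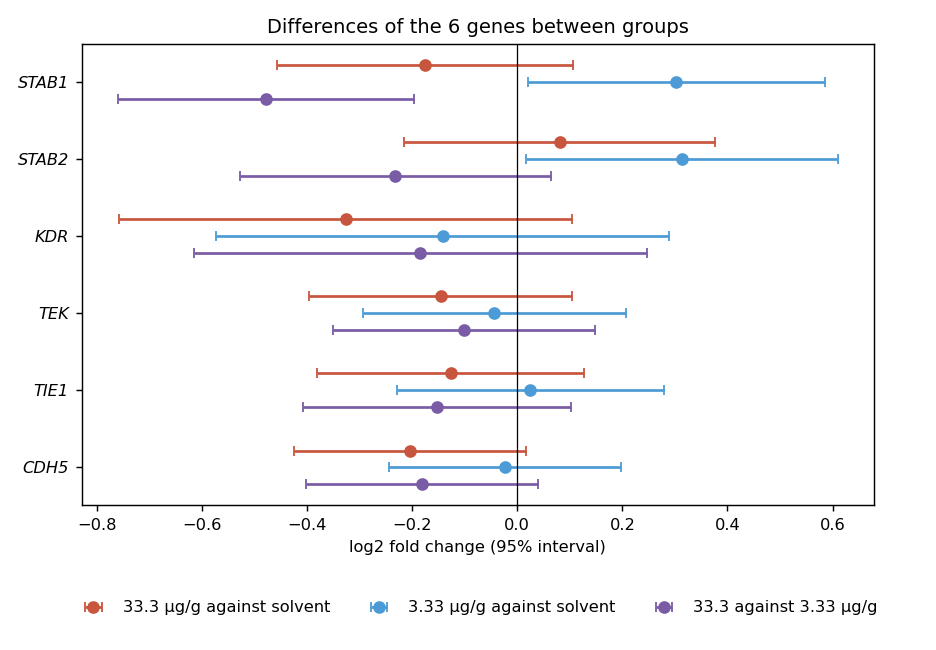
Log2 fold changes (horizontal axis) with 95% intervals for each gene, in 33.3 µg/g against solvent (red), 3.33 µg/g against solvent (blue) and 33.3 against 3.33 µg/g (purple). The intervals of STAB1 and STAB2 at 3.33 µg/g against solvent, and of STAB1 at 33.3 against 3.33 µg/g, lie off 0, and each of those differences had an adjusted p above 0.05.

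The counts over the 6 genes were set beside those over all 14508 genes tested. For 33.3 µg/g against solvent, 0 of 6 passed an adjusted p of 0.05, where 1.08% of all genes did. An unadjusted p under 0.05 was reached by 0 of 6, where 10.8% of all genes reached it, and the groups were without overlap for 0 of 6, against 2.91% of all genes. The median log2 fold change of the 6 genes was -0.16, beside -0.00015 for all genes. At 3.33 µg/g against solvent, 0 of 6 passed the adjusted p, with 1.38% of all genes passing. STAB1 and STAB2 had an unadjusted p under 0.05, which makes 2 of 6 where 14.6% of all genes did, and 0 of 6 were without overlap, against 3.89% of all genes. The median of the 6 was 0.00075, beside 0.0042 for all genes. DESeq2 and limma-voom also called 0 of the 6 in each of these comparisons.

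Both doses were also pooled against solvent, as the mean of the 2 dose effects in 1 comparison. Here 0 of 6 genes passed an adjusted p of 0.05, with 1.96% of all genes passing. An unadjusted p under 0.05 was reached by 0 of 6, with 14.7% of all genes. The groups were without overlap for 0 of 6, against 1.29% of all genes. The log2 fold changes of this comparison were 0.20 for STAB2, 0.064 for STAB1, -0.051 for TIE1, -0.094 for TEK, -0.11 for CDH5 and -0.23 for KDR, with adjusted p of 0.497 or more by edgeR. DESeq2 and limma-voom called 0 of the 6 here too.

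Between the doses, the largest difference was that of STAB1. It averaged 90.2 CPM at 33.3 µg/g and 125.6 CPM at 3.33 µg/g, a log2 fold change of -0.48 (SE 0.13, 95% interval -0.76 to -0.20). Its unadjusted p was 0.00256 and its adjusted p 0.823 by edgeR. No gene of the 14508 passed between the doses (0%), while 5.55% had an unadjusted p under 0.05 and 0.655% had groups without overlap. Of the 6 genes, 1 had an unadjusted p under 0.05 and 0 were without overlap. DESeq2 called 19 genes between the doses, none of them among the 6, and limma-voom called 0. The other five genes differed by -0.23 for STAB2, -0.18 for KDR, -0.18 for CDH5, -0.15 for TIE1 and -0.10 for TEK on the log2 scale, with adjusted p of 0.947 or more. The median over the 6 was -0.18, beside -0.0024 for all genes. The 4 comparisons share libraries and are not independent.

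The macrophage markers were highest in replicate 3 at 3.33 µg/g, the library in which STAB1, STAB2, TIE1 and CDH5 were also highest. The macrophage list held 14 genes, of which 10 were tested. Their summed level was 107.5 to 174.5 CPM in solvent, 159.8 to 315.9 CPM at 3.33 µg/g and 129.7 to 182.7 CPM at 33.3 µg/g, with the highest sum in replicate 3 at 3.33 µg/g. None of the 10 was at 0 CPM in any library. At 3.33 µg/g against solvent, 9 of the 10 had a log2 fold change above 0, with a median of 0.65. An unadjusted p under 0.05 was reached by 6 of them, where 14.6% of all genes reached it. The complement gene C1QB rose, with 14.9 ± 4.02 CPM at 3.33 µg/g and 8.16 ± 1.65 CPM in solvent (SD, n = 5 each). Its log2 fold change was 0.87 with an SE of 0.18 (adjusted p 0.0234 by edgeR). This call was lost under 6 of 27 alternatives, with adjusted p up to 0.288. Among them were those without solvent replicate 2, without solvent replicate 5 and without replicate 3 at 3.33 µg/g. Another was a covariate of the mean macrophage marker level, which includes C1QB itself and so is no separate check. CSF1R, the receptor that macrophages need for survival, had a log2 fold change of 0.70 with an adjusted p of 0.175. With 33.3 µg/g against solvent, 5 of the 10 were above 0, 0 passed and the median was 0.0054. Between the doses, where STAB1 was lower at 33.3 µg/g, 9 of the 10 macrophage markers were below 0, with a median of -0.62. Of these, 6 had an unadjusted p under 0.05, where 5.55% of all genes did, and 0 passed by edgeR, while DESeq2 called C1QB lower.

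With the mean of the macrophage markers as a covariate, the log2 fold change of STAB1 at 3.33 µg/g against solvent was 0.18 with an unadjusted p of 0.254 and an adjusted p of 0.825 by edgeR, in place of 0.30. Without replicate 3 at 3.33 µg/g it was 0.17, with an adjusted p of 0.600. That of STAB2 was 0.25 both with the covariate and without that library. Between the doses, STAB1 was at -0.35 with the covariate and also at -0.35 without that library. At 33.3 µg/g against solvent STAB1 was at -0.17 with the covariate. Over all tested genes, the covariate lowered the number called at 3.33 µg/g against solvent from 200 to 64. The markers averaged in it, C1QB among them, themselves differed by group. Their summed level had a mean of 208.6 CPM at 3.33 µg/g and 151.2 CPM in solvent. The covariate can therefore also take up part of a difference between these groups. The part of macrophages in the level of STAB1 was not tested.

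The 6 genes deviated together in some libraries. Replicate 3 at 3.33 µg/g was above the median of its group for 6 of 6 genes and was the highest of all libraries for 4 of them. Replicate 4 in solvent and replicate 4 at 33.3 µg/g were above their group's median for 5 of 6. Replicates 4 and 5 at 3.33 µg/g, replicate 5 in solvent and replicate 3 at 33.3 µg/g were above it for 0 of 6. The summed level of the 6 genes was 383.9 to 462.2 CPM in solvent, 387.0 to 577.6 CPM at 3.33 µg/g and 359.6 to 425.1 CPM at 33.3 µg/g, so the group at 3.33 µg/g held the widest range and the groups overlapped.

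**Figure D3:**
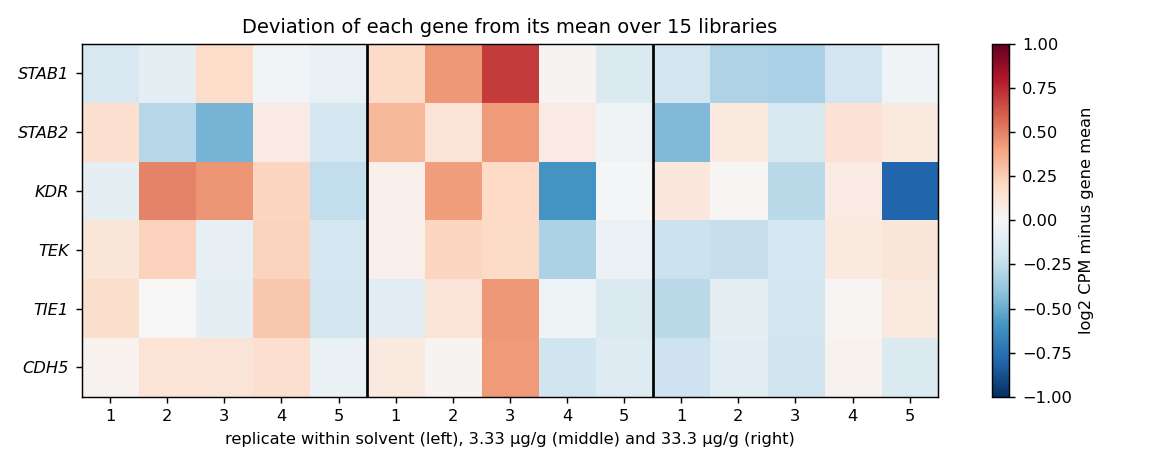
Log2 CPM of each gene (rows) minus its mean over 15 libraries, by library (columns) in solvent, 3.33 and 33.3 µg/g, with red above and blue below the mean. Replicate 3 at 3.33 µg/g is red in all 6 rows, and KDR is lowest in replicate 5 at 33.3 µg/g.

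Correlations between the genes were taken over the 15 libraries on deviations from the group means, with p-values from 100000 permutations within groups, two-sided, adjusted over the 15 pairs. Pearson's r was above 0 for 14 of 15 pairs and below 0 for 1, with a median of 0.52, and 0 pairs passed an adjusted p of 0.05 by r or by Spearman's rho. The receptor genes TEK and TIE1 had r = 0.73 (permutation p 0.00782, adjusted 0.0570) and rho = 0.67 (permutation p 0.0123, adjusted 0.0920), and r was 0.81 without the 2 libraries farthest from the median of TEK. STAB2 and TIE1 had r = 0.72 (permutation p 0.00397, adjusted 0.0570) and rho = 0.76 (permutation p 0.00365, adjusted 0.0548), with r = 0.70 without 2 libraries. The same adjusted permutation p of r, 0.0570, was reached by TIE1 and CDH5 (r = 0.71, rho = 0.61) and by TEK and CDH5 (r = 0.67, rho = 0.575). Their r was 0.37 and 0.59 without the 2 libraries farthest from the median of TIE1 and of TEK. Without replicate 3 at 3.33 µg/g it was 0.45 and 0.71. The highest r was that of STAB1 and CDH5, 0.74 (permutation p 0.0261, adjusted 0.0782), with rho = 0.55 (permutation p 0.0782, adjusted 0.168). It was 0.42 without replicates 2 and 3 at 3.33 µg/g, on which it therefore rests in part. The scavenger receptor genes STAB1 and STAB2 had r = 0.19 (permutation p 0.465, adjusted 0.535) and rho = 0.11 (permutation p 0.714, adjusted 0.765), and r was -0.066 without the same 2 libraries. KDR and TIE1 had r = 0.052 (permutation p 0.863, adjusted 0.863) and rho = 0.054 (permutation p 0.863, adjusted 0.863), and STAB2 and KDR had the lowest r, -0.20 (permutation p 0.499, adjusted 0.535), with rho = -0.29 (permutation p 0.329, adjusted 0.411). Those of KDR and TIE1, and of STAB2 and KDR, were 0.24 and 0.064 without the 2 libraries farthest on KDR and on STAB2. All libraries share the tissue and the CPM scale.

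A pair of ratios was followed within libraries, since a ratio of 2 genes does not depend on the library total. The log2 ratio of STAB2 to STAB1 counts was -0.35 ± 0.26 at 33.3 µg/g and -0.61 ± 0.37 in solvent (SD, n = 5 each), a difference of 0.26 with an exact two-sided permutation p of 0.254 (adjusted over 6 tests 0.762). The difference was 0.21 at 33.3 against 3.33 µg/g (exact permutation p 0.159, adjusted 0.762) and 0.046 at 3.33 µg/g against solvent (adjusted exact permutation p 0.825). The log2 ratio of TIE1 to TEK was 0.63 ± 0.11 in solvent, 0.69 ± 0.20 at 3.33 µg/g and 0.65 ± 0.088 at 33.3 µg/g (SD, n = 5 each), with an adjusted exact permutation p of 0.825 for each of its 3 comparisons. At 3.33 µg/g it was 0.89 and 0.93 in replicates 3 and 4, whose chromosome Z level was low, and 0.50 to 0.57 in the others. In the low libraries of the other groups, solvent replicate 3 (0.64) and replicate 1 at 33.3 µg/g (0.60), it lay inside the group's range. The part of chromosome Z, which carries TEK, in this ratio was not tested. No ratio passed an adjusted p of 0.05, and with 5 against 5 libraries the smallest p that the exact test allows is 0.00794.

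The 10 genes whose levels followed the 6 most closely were found among 10597 tested genes with a symbol and a mean of at least 1 CPM. The measure was Pearson's r, over 15 libraries, between a gene's log2 CPM and the mean standardized level of the 6 genes, both as deviations from the group means, and it is a description. LRP6, a co-receptor of Wnt signalling, had the highest r, 0.89, and SALL4, a transcription factor of early development, had 0.88. They were followed by SLC2A13 (0.87), ANKRD39 (0.86), SHANK3 (0.86), ARHGEF7 (0.86), KLHL15 (0.85), ADCY9 (0.84), MAN1B1 (0.84) and GPR162 (0.84). SHANK3 was the only one of the 10 on an endothelial list. Without replicate 3 at 3.33 µg/g the 10 values were 0.79 to 0.88. By list, the median r was 0.30 for the general endothelial genes, 0.20 for mesenchymal markers, 0.19 for macrophage markers, 0.165 for hepatocyte markers, 0.16 each for thrombocyte markers and the VEGF and angiopoietin genes, and 0.11 for the sinusoidal genes. It was -0.043 for erythroid markers, -0.16 for biliary markers and -0.18 for the junction partners, beside -0.017 for all genes compared. The genes of one list vary widely, as the general endothelial genes ran from -0.20 to 0.86.

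The ligands and partners of the KDR, TEK and TIE1 receptors were described from a list of 18 genes, of which 16 were tested. None passed an adjusted p of 0.05 in any comparison. At 33.3 µg/g against solvent 4 had a fitted level above and 12 below solvent, with a median log2 fold change of -0.11, and at 3.33 µg/g 9 were above and 7 below, with a median of 0.043. VEGFA, the main VEGF ligand, averaged 109.7 ± 12.0 CPM in solvent, 101.0 ± 7.22 CPM at 3.33 µg/g and 111.2 ± 16.1 CPM at 33.3 µg/g (SD, n = 5 each), with adjusted p of 0.647 or more against solvent by edgeR. PTPRB, the phosphatase that restrains TIE2 signalling, had the smallest p of the list at 33.3 µg/g against solvent. It averaged 21.6 ± 1.48 CPM at 33.3 µg/g and 25.6 ± 3.67 CPM in solvent (SD, n = 5 each), a log2 fold change of -0.25 with an adjusted p of 0.472 by edgeR. VEGFC, a ligand of the lymphatic VEGF receptor, averaged 24.4 ± 5.34 CPM at 3.33 µg/g and 20.03 ± 1.55 CPM in solvent (SD, n = 5 each), with a log2 fold change of 0.29 and an adjusted p of 0.363. The other VEGF receptor genes, FLT1 and FLT4, had log2 fold changes of -0.25 and -0.12 at 33.3 µg/g against solvent, and of -0.17 and 0.017 at 3.33 µg/g.

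The general endothelial list of 46 genes had 41 tested, and none passed by edgeR in any comparison. Of these, 18 were at 33.3 µg/g above and 23 below solvent, with a median of -0.012, and at 3.33 µg/g 30 were above and 11 below, with a median of 0.087. AQP1, the water channel of endothelial and other cells, averaged 94.0 ± 18.4 CPM at 3.33 µg/g and 56.8 ± 13.3 CPM in solvent (SD, n = 5 each), a log2 fold change of 0.73 (SE 0.21) with an adjusted p of 0.103 by edgeR. The mean at 33.3 µg/g was 81.2 ± 26.8 CPM, a log2 fold change of 0.51 (adjusted p 0.377). KLF4, a transcription factor induced by blood flow, averaged 4.98 ± 2.90 CPM at 3.33 µg/g and 2.09 ± 0.260 CPM in solvent (SD, n = 5 each), or 1.25 (SE 0.38) on the log2 scale, with an adjusted p of 0.120. DESeq2 called both genes higher at 3.33 µg/g against solvent, and AQP1 higher with both doses pooled against solvent, but neither at 33.3 µg/g. Limma-voom called neither in any comparison. AQP1 and KLF4, like other genes of this list, are also made by cells other than endothelial cells, and KLF4, like TEK, lies on chromosome Z. PECAM1, the adhesion molecule CD31, averaged 13.2 ± 1.32 CPM in solvent, 14.9 ± 2.09 CPM at 3.33 µg/g and 13.7 ± 1.78 CPM at 33.3 µg/g (SD, n = 5 each), and ERG, the transcription factor of endothelial identity, 17.3 ± 1.63, 19.3 ± 2.43 and 17.6 ± 2.04 CPM in the same order. Both had adjusted p of 0.544 or more at each dose against solvent by edgeR.

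Of 25 sinusoidal and scavenger genes, 18 were tested and none passed in any comparison. Among them, at 33.3 µg/g, 8 were above and 10 below solvent, with a median of -0.024, and at 3.33 µg/g 9 were above and 9 below, with a median of 0.017. THBD, the anticoagulant thrombomodulin, averaged 33.9 ± 2.93 CPM at 3.33 µg/g and 25.8 ± 4.86 CPM in solvent (SD, n = 5 each), a log2 fold change of 0.40 with an adjusted p of 0.217 by edgeR. CTSL, a lysosomal protease made by many cell types and encoded on chromosome Z, averaged 274.8 ± 48.7 CPM at 33.3 µg/g and 357.4 ± 38.6 CPM in solvent (SD, n = 5 each), a log2 fold change of -0.38 with an adjusted p of 0.350. LYVE1, the hyaluronan receptor of sinusoidal and lymphatic endothelium, averaged 20.01 ± 4.55 CPM in solvent, 16.2 ± 2.92 CPM at 3.33 µg/g and 16.8 ± 1.97 CPM at 33.3 µg/g (SD, n = 5 each), with adjusted p of 0.664 and 0.414 for the higher and the lower dose against solvent.

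All 8 adherens junction partners of VE-cadherin were tested and none passed. At each dose against solvent, 3 were above and 5 below solvent, with medians of -0.013 at 33.3 µg/g and -0.035 at 3.33 µg/g. CTNND1, p120-catenin, which holds VE-cadherin at the cell surface, had a log2 fold change of -0.15 at 33.3 µg/g (adjusted p 0.494 by edgeR). VCL, vinculin, which links junctions to actin, had one of -0.16 at 3.33 µg/g (adjusted p 0.369). Catenins and vinculin also serve the junctions of hepatocytes. Over the 4 lists, with 83 tested genes and 97 listed, an unadjusted p under 0.05 was reached by 3 genes (3.61%) at 33.3 µg/g, by 10 (12.0%) at 3.33 µg/g, by 7 (8.43%) with both doses pooled against solvent and by 4 (4.82%) between the doses. Over all tested genes the shares were 10.8%, 14.6%, 14.7% and 5.55%. DESeq2 called 0, 2, 1 and 0 of the 83, which were AQP1 and KLF4, and limma-voom called 0.

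**Figure D4:**
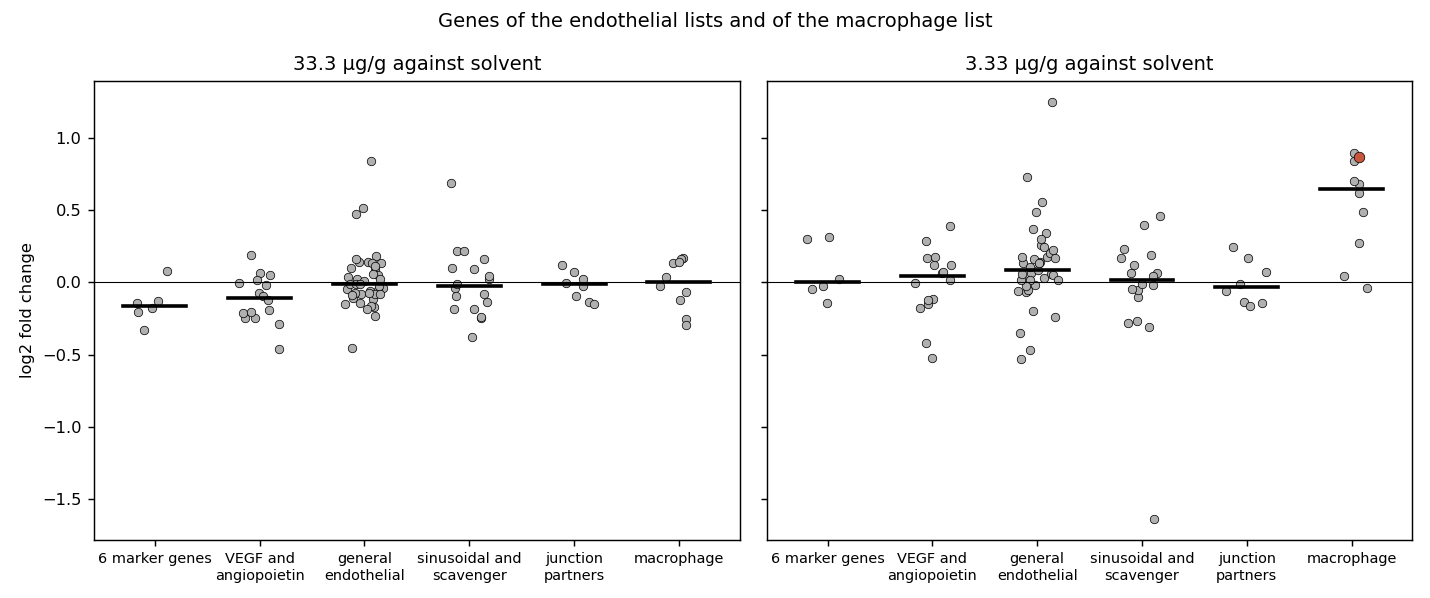
Log2 fold changes (vertical axis) of the tested genes of each list at 33.3 µg/g (left) and 3.33 µg/g (right) against solvent, with a bar at the median and a red point for an adjusted p under 0.05. The macrophage list at 3.33 µg/g has a median of 0.65 and the one red point, C1QB. The medians of the VEGF and angiopoietin, general endothelial, sinusoidal and junction partner lists lie between -0.11 and 0.087. Those of the 6 marker genes are -0.16 at 33.3 µg/g and 0.00075 at 3.33 µg/g.

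Markers of other liver cells gave these values. HGF, the growth factor that stellate cells supply to hepatocytes, rose at 3.33 µg/g, with 47.0 ± 6.85 CPM at that dose and 27.6 ± 4.68 CPM in solvent (SD, n = 5 each), or 0.77 (SE 0.14) on the log2 scale, with an adjusted p of 0.00862 by edgeR. It was the 1 of 16 mesenchymal genes to pass in that comparison, where 1.38% of all genes passed. The adjusted p of HGF was 0.106 with the macrophage covariate, whose markers summed higher at that dose than in solvent. Of the 16 genes, 9 were above and 7 below solvent at 3.33 µg/g, with a median log2 fold change of 0.082. At 33.3 µg/g 12 were above and 4 below, with a median of 0.11. HGF also passed with both doses pooled against solvent, with a log2 fold change of 0.52 (adjusted p 0.0366), but not at 33.3 µg/g alone. The pooled call was lost under 14 of 26 alternatives with adjusted p up to 0.109, among them the omission of solvent replicate 1, 2, 4 or 5, of replicate 3 or 4 at 3.33 µg/g, or of replicate 1, 2 or 5 at 33.3 µg/g. DCN, a matrix proteoglycan, had 0.24 (adjusted p 0.276) at 3.33 µg/g. Of 15 tested hepatocyte genes, 3 were above and 12 below solvent at each dose, with a median log2 fold change of -0.26 at 33.3 µg/g and -0.33 at 3.33 µg/g. An unadjusted p under 0.05 was reached by 3 higher and 5 lower genes at 33.3 µg/g and by 3 higher and 7 lower genes at 3.33 µg/g. The shares over all tested genes were 10.8% and 14.6%. The apolipoprotein gene APOB and the retinol carrier gene RBP4 rose at each dose against solvent, with log2 fold changes of 1.51 for APOB and 0.70 for RBP4 at 33.3 µg/g and of 1.72 and 0.78 at 3.33 µg/g. The largest log2 fold change of the list at 33.3 µg/g was 2.52 and did not pass by edgeR. DESeq2 also called AHSG higher at 33.3 µg/g and with both doses pooled, and HNF4A lower at 3.33 µg/g and with both doses pooled. It called FGA lower at 33.3 µg/g. The fibrinogen genes FGB and FGG fell at 33.3 µg/g, by 1.05 each on the log2 scale (adjusted p 0.0454 and 0.0410 by edgeR). With both doses pooled against solvent, FGA, FGB and FGG fell by 0.84, 0.85 and 0.83. At 3.33 µg/g alone, edgeR called no hepatocyte gene lower. Each fibrinogen call was lost under 12 to 15 of the 26 or 27 alternatives, among them the omission of any of solvent replicates 1, 2, 4 and 5, with adjusted p up to 0.138. The call of RBP4 at 3.33 µg/g was lost with the macrophage covariate, with an adjusted p of 0.0790. None of 11 erythroid, 9 thrombocyte and 5 biliary genes passed by edgeR, while DESeq2 called the integrin gene ITGB3 lower at 3.33 µg/g and with both doses pooled against solvent. At 33.3 µg/g against solvent, an unadjusted p under 0.05 was reached by 0 erythroid genes and 2 lower thrombocyte genes. Of the biliary genes, 1 higher and 1 lower reached it there. At 3.33 µg/g it was reached by 0 erythroid genes, 1 lower thrombocyte gene and 2 higher biliary genes. Of the 5 biliary genes, 2 were above and 3 below solvent at 33.3 µg/g, and 3 above and 2 below at 3.33 µg/g. Of the 11 erythroid genes, 6 were above and 5 below at 33.3 µg/g, and 7 above and 4 below at 3.33 µg/g. The smallest p were those of ITGB3 (-1.19, adjusted p 0.117 at 3.33 µg/g), F13A1 (-0.83, adjusted p 0.330 at 33.3 µg/g), TFRC (-0.71, adjusted p 0.483 at 33.3 µg/g), GFI1B (0.43, adjusted p 0.616 at 3.33 µg/g), SOX9 (2.14, adjusted p 0.157 at 3.33 µg/g) and SPP1 (1.65, adjusted p 0.213 at 3.33 µg/g). The summed thrombocyte markers were 145.6 to 215.2 CPM in solvent, 71.8 to 190.2 CPM at 3.33 µg/g and 89.1 to 123.9 CPM at 33.3 µg/g. By single gene, 5 of the 9 thrombocyte genes were above and 4 below solvent at 3.33 µg/g, with a median log2 fold change of 0.037. At 33.3 µg/g 2 were above and 7 below, with a median of -0.31. With the erythroid markers as a covariate, none of the 6 genes passed an adjusted p of 0.05 by edgeR. The part of the other cell types of this paragraph in the levels of the 6 genes was not tested.

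STAB2, TIE1 and CDH5 had more than 1 transcript entry in the deposited table, 3 for STAB2 and 2 each for TIE1 and CDH5, and the entries carry no transcript name. The share of each entry in a gene's counts was compared over libraries with 15 exact two-sided permutation tests, none of which passed after adjustment. The entry of TIE1 listed first held 62.0%, 51.9%, 61.5%, 59.6% and 44.2% of the gene's counts in solvent. It held 55.9%, 52.3%, 52.7%, 64.4% and 44.3% at 3.33 µg/g, and 69.7%, 59.8%, 69.2%, 57.9% and 72.0% at 33.3 µg/g. The 3 highest shares were all at 33.3 µg/g. The mean shares were 65.7 ± 6.397% at 33.3 µg/g and 53.9 ± 7.25% at 3.33 µg/g (SD, n = 5 each; exact permutation p 0.0318, adjusted over 15 tests 0.238). Against 55.8 ± 7.67% in solvent, the exact permutation p at 33.3 µg/g was 0.0714 (adjusted 0.357).

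The minor entry of CDH5, listed second, held 7.97%, 3.99%, 5.64%, 8.16% and 5.56% at 3.33 µg/g and 4.57%, 3.12%, 2.77%, 1.70% and 1.49% in solvent. Only replicate 2 at 3.33 µg/g lay inside the solvent range. The share of the major entry was 93.7 ± 1.77% at 3.33 µg/g and 97.3 ± 1.24% in solvent (SD, n = 5 each; exact permutation p 0.0159, adjusted over 15 tests 0.238). The minor entry ran, at 33.3 µg/g, from close to 0 in replicate 1 to 6.62% in replicate 5, and the major entry averaged 96.7 ± 2.75% (exact permutation p 0.667 against solvent, adjusted 0.787). The 3 entries of STAB2 varied widely between libraries of one group, with unadjusted exact permutation p of 0.246 or more. These shares are estimates by the authors' quantifier, which divides reads that fit several transcripts.

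**Figure D5:**
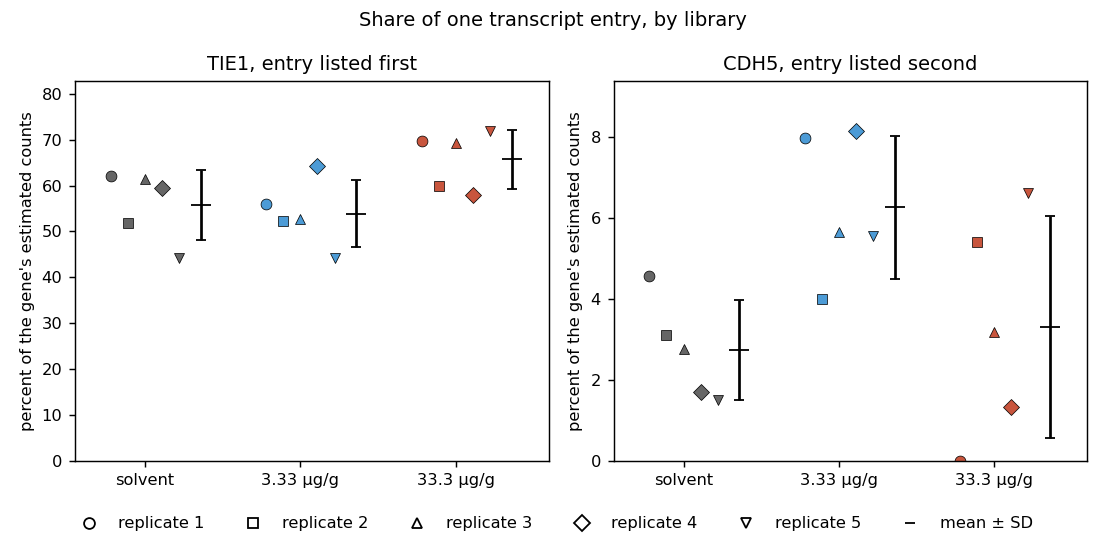
Share of a gene's estimated counts held by one transcript entry (vertical axes, percent), for the entry of TIE1 listed first and the entry of CDH5 listed second, by group and replicate, with mean and SD of 5 libraries. The 3 highest libraries for TIE1 are at 33.3 µg/g, and 4 of 5 libraries at 3.33 µg/g stand above all solvent libraries for CDH5.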

How the data were processed

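The authors quantified the reads with kallisto, per the submitters' processing notes. For its version, the transcript index and the build, no statement is given in the sources used here. The authors deposited estimated counts (expected counts) per transcript, made by kallisto without normalization. They sit in 47418 entries, each named by an NCBI gene ID, and no column was left out. The entries of each gene ID were added up and the sum was rounded. Of 20308 IDs, 18900 (93.1%) were in the gene table of the Coturnix japonica 2.1 assembly, which gave symbols and chromosomes. Library totals had a median of 28086522.

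All 15 libraries entered a model of group in edgeR 4.0.16 (R 4.3.3), after filterByExpr and TMM. Its robust quasi-likelihood F-test was used for each dose and for the mean of both doses against solvent, and for 33.3 against 3.33 µg/g. P-values are two-sided and carry a Benjamini-Hochberg adjustment across all 14508 tested genes, with calls at an adjusted p under 0.05. The SE was derived from the fold change and F. Ratios, entry shares and correlations used permutation tests in Python 3.11.15 with scipy 1.17.1 and pandas 2.3.3, and figures used matplotlib 3.10.9. The model was tested on simulated data. Intervals of fold changes include the spread between libraries, while the Poisson interval of a count covers counting error only, and reads lacking molecular identifiers may be copies of one molecule.

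The 6 genes and the 10 other gene lists were chosen with earlier results of these data known. Of each other list, the members that passed are named, and otherwise the 2 with the smallest p against solvent. Further list genes, the entry shares and the omission of replicate 3 at 3.33 µg/g from the correlations were chosen after values were seen. Alternatives were RLE factors, library totals, 2 other filters, DESeq2 1.42.0, limma-voom (limma 3.58.1), a replicate block, fits to 2 groups, covariates for erythroid, macrophage and chromosome Z genes, an adjusted p under 0.1, pseudocounts and unrounded counts for the ratios, and omission of libraries. Replicate numbers were checked for pairing: of 15 same-numbered pairs, 1 had deviations correlated above 0.1, so the numbers were taken as names. No replicate was a copy of another of its group, with a chi-square per degree of freedom of at least 26.2 in all 30 pairs within groups.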

Additional observations from a re-analysis of the deposited data

Results flagged for a closer look

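A single value stood apart from its group: the log2 ratio of TIE1 to TEK counts in solvent replicate 2 was 0.43, and the other four solvent libraries had 0.64 to 0.71. The gap was 0.763 of the group's range, above the critical value of 0.71 for 5 libraries. Of 39 groups of values examined in this way 1 was picked out. Chance picks out about 1 in 20, which makes 1.95 expected among the 39.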

How the results depend on the processing

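Of 642 log2 fold changes of the 6 genes under alternative settings, 629 kept their direction, 13 reversed and 0 passed an adjusted p of 0.05. The replicate block gave STAB1 at 3.33 µg/g against solvent 0.29 (adjusted p 0.392 by edgeR) and changed no call of the 6 genes. Every fold change of 33.3 µg/g against solvent or against 3.33 µg/g kept its sign, but single libraries moved some by over 1.5 times. Against solvent, STAB2 ran from 0.0050 (without solvent replicate 3) to 0.16 (without replicate 1 at 33.3 µg/g), KDR was -0.20 without replicate 5 at 33.3 µg/g, and TIE1 was -0.065 without solvent replicate 4. Against 3.33 µg/g, CDH5 was -0.077 and TIE1 -0.050 without replicate 3 at 3.33 µg/g, STAB2 was -0.15 without replicate 1 at 33.3 µg/g, KDR ran from -0.31 (without replicate 4 at 3.33 µg/g) to -0.059 (without replicate 5 at 33.3 µg/g), and TEK ran from -0.18 to -0.051 (without replicates 4 and 2 at 3.33 µg/g). At 3.33 µg/g against solvent, TEK (-0.044) was 0.012 with the macrophage covariate and 0.033 without the low-albumin libraries, TIE1 (0.025) was -0.056 with the macrophage covariate, and CDH5 (-0.024) was 0.024 on library totals and 0.036 without the low-albumin libraries. With single libraries left out, these ran from -0.10 to 0.033 for TEK, -0.082 to 0.087 for TIE1 and -0.13 to 0.036 for CDH5. On library totals, the median over all genes in that comparison was 0.0565, in place of 0.0042, and CDH5 lay below it. With both doses pooled against solvent, STAB1 ran from -0.0034 (without replicate 3 at 3.33 µg/g) to 0.12 and TIE1 from -0.11 to 0.011 (without solvent replicate 4). The log2 ratio of STAB2 to STAB1 at 3.33 µg/g against solvent ran from -0.091 to 0.16. That of TIE1 to TEK ran from -0.028 to 0.042 at 33.3 µg/g against solvent and from -0.094 to 0.013 between the doses. Without replicate 3 at 3.33 µg/g, r was -0.045 for STAB1 and STAB2 and -0.069 for KDR and TIE1. On log2 CPM, with no group means removed, 7 of 15 pairs passed. The causes were not tested.

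Genes called among all tested were 157 at 33.3 µg/g against solvent, and 386 by DESeq2, 101 with the replicate block, 248 at an adjusted p under 0.1 and 93 to 194 with single libraries left out (93 without solvent replicate 1 and 103 without solvent replicate 4). At 3.33 µg/g against solvent they were 200, and 656 by DESeq2, 117 with the replicate block, 64 with the macrophage covariate, 469 at an adjusted p under 0.1 and 111 to 264 with libraries left out (111 without solvent replicate 1 and 117 without replicate 3 at 3.33 µg/g). With both doses pooled they were 285, and 703 by DESeq2, 165 with the replicate block, 148 with the macrophage covariate, 442 with the chromosome Z covariate, 522 at an adjusted p under 0.1 and 147 to 334 with libraries left out (151, 184 and 147 without solvent replicates 1, 2 and 4). Between the doses they were 0, and 19 by DESeq2 and 2 at an adjusted p under 0.1. A fit to 2 groups gives no value for both doses together.

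With 5 libraries a group, the precision differed between genes: the 95% interval of the fold change at 33.3 µg/g against solvent was 0.745 to 1.01 for CDH5 and 0.592 to 1.075 for KDR. The upper end of the 95% counting interval at each gene's lowest count was 4.44% to 7.92% above that count. This distance was below the coefficient of variation of that gene within every group.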

Other observations

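PTPRB, the phosphatase of endothelial cells, had an unadjusted p of 0.00306 between the doses, with 21.6 ± 1.48 CPM at 33.3 µg/g and 28.7 ± 4.48 CPM at 3.33 µg/g (SD; edgeR, log2 fold change -0.41, adjusted p 0.823). It was picked out after its value was seen. The blood-vessel Notch ligand DLL4 averaged 15.4 ± 2.36 CPM at 3.33 µg/g and 19.7 ± 3.23 CPM in solvent (SD, n = 5 each), a log2 fold change of -0.35 with an adjusted p of 0.219 by edgeR. The apelin receptor gene APLNR averaged 34.7 ± 6.005 CPM at 3.33 µg/g and 27.4 ± 4.11 CPM in solvent (SD, n = 5 each), a log2 fold change of 0.34 with an adjusted p of 0.184. Neither passed, and both were chosen after their values were seen.

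VEGFD and WNT2 were below the filter on low counts, with 94 and 70 estimated counts over 15 libraries.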
